A study of Homo sapiens with 4 samples.

Results

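BARHL1, LMX1A, INSM1 and IGFBPL1 were measured in the ATOH1 lineage derived from human pluripotent stem cells (hPSCs). They were taken by name, as homeobox genes of the rhombic lip (BARHL1 and LMX1A) and genes of neurogenic progenitors (INSM1 and IGFBPL1). All 4 genes were found, among 1652 genes that could be named in the files and 66127 genes and transcripts in all, and all 4 passed the filter on low counts with 43809 of these.

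The rhombic lip is the dorsal edge of the hindbrain neuroepithelium, next to the roof plate, and its ATOH1+ progenitors give rise to cerebellar granule cells and other excitatory neurons. BARHL1 encodes a BarH-like homeodomain transcription factor of the ATOH1 lineage, known for its place in granule cell migration and survival. LMX1A encodes a LIM homeodomain factor of the roof plate and the rhombic lip. INSM1 encodes a zinc finger repressor that is switched on for a short time as neural progenitors become neurons, and IGFBPL1 encodes a secreted protein with an insulin-like growth factor binding domain that is found in newborn neurons.

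The cells were of the human embryonic stem cell line RUES2, carrying the ATOH1-EGFP-L10a transgene, in which a human ATOH1 enhancer and a beta-globin minimal promoter drive a ribosomal protein tagged with EGFP. In translating ribosome affinity purification (TRAP), GFP antibodies (19C8 and 19F7) pull down the tagged ribosomes, and the mRNA bound to them is sequenced. The 3 immunoprecipitates (IPs) came from independent differentiation experiments and stand against 1 input library, which one legend of the study calls unbound, all at day in vitro (DIV) 28. All cultures, the input included, had received SB431542 and LDN-193189, CHIR99021, FGF2, BDNF and BMP7 as well as puromycin. For TRAP, cycloheximide was added to the medium shortly before lysis to stabilise polysomes. The transgene was delivered by lentivirus, and 2 clonal lines were kept per transgene. Which of them was used here is not given in the sources used here, and neither is the culture from which the input came. Cells that hold the transgene but do not read the enhancer add to the input and not to the tagged ribosomes. A lower level in the input can therefore come from fewer cells of a type or from less RNA per cell. Because the IPs hold ribosome-bound mRNA, it can also come from how much of an mRNA is bound. These cannot be told apart in bulk samples.

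The records and the file tags disagree on which library is the input. The tag in the title of the record labelled input stands in the name of a file deposited under a record labelled IP, and that file was taken as the input. Of 998 genes of the study's gene table kept out of the last step of the scaling, 853 could be recomputed with this library as the input. Some of them may have entered its first step. With IP replicates 1, 2 and 3 in its place, 3, 0 and 2 could be recomputed. In those cases the scaling fit could not be completed, since 3, 5 and 6 of its 111 genes matched, against 35 with this library. IP replicate 1 here is the library deposited under the record labelled input. The tag of the input is on none of the IPs, so group and tag coincide and cannot be told apart. Estimated counts summed to between 34603230 and 41173019 reads per library. ATOH1, whose enhancer drives the tag, stood at 26.1, 36.0 and 33.2 CPM (counts scaled to library size by TMM) in the IPs. The input held 0.173 CPM, from 7 reads. With the files linked as the records link them, its log2 fold change went from 7.49 to -0.17, and values under that link are given for each gene below.

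On the GRCh37 assembly, the build of the files, BARHL1 lies on the plus strand at chr9:135457993-135465639 with 3 exons, and INSM1 on the plus strand at chr20:20348748-20351593 as a single exon. IGFBPL1 lies on the minus strand at chr9:38406525-38424451, with 5 exons in its longest transcript. LMX1A lies on the minus strand at chr1:165171104-165325952, with 9 exons in its longest transcript. LMX1A overlaps 2 antisense genes, LMX1A-AS1 and LMX1A-AS2, which share 175 exonic bases with it. The library kit does not mark the strand, so reads from these bases cannot be assigned to one gene, and the LMX1A level carries this uncertainty. BARHL1, INSM1 and IGFBPL1 overlap no other annotated gene.

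The 250 bases before the transcription start are shown for the 3 genes with an entry in the RefSeq promoter table (build GRCh38.p14). They serve as a description only, and a link between these bases and the levels was not tested. INSM1 has no entry in that table. They are written 5′ to 3′ on the strand of the gene, with E-boxes (CANNTG, the general form of the sites of bHLH factors) in capitals. Capitals mark a match to these letters and not a site of ATOH1, and binding was not tested. The windows are chr9:132582356-132582605 (plus strand) for BARHL1, chr1:165356716-165356965 (minus strand, the outer of 2 start sites in the table) for LMX1A, and chr9:38424455-38424704 (minus strand) for IGFBPL1.
BARHL1: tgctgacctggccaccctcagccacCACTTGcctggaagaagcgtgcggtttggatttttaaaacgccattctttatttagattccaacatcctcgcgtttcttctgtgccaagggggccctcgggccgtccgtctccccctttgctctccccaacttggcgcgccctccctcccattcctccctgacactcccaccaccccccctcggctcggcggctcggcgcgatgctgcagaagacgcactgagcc
LMX1A: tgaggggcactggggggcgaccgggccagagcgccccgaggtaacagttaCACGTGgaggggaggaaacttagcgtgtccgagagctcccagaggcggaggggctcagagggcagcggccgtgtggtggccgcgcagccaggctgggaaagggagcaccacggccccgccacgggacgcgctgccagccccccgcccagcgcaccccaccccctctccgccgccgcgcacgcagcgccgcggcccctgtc
IGFBPL1: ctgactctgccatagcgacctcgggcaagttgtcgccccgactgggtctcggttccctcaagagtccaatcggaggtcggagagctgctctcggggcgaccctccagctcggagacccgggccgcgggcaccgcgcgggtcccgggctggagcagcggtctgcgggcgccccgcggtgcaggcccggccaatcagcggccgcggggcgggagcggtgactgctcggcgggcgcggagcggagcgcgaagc

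The BARHL1 window held 1 E-box, CACTTG, 225 bases before the start, and the LMX1A window held 1, CACGTG, 200 bases before it. The IGFBPL1 window held none. Of 35116 promoter windows of the same length, 61.8% held a CANNTG, so its presence in a window is common. The motifs CAGCTG (in 14.0% of all windows), CAGATG on either strand (12.2%), TAATTA (4.35%) and TAAACG on either strand (2.5%) were in none of the 3. CAGCTG and CAGATG are themselves forms of CANNTG. GC content was 61.6% for BARHL1, 75.2% for LMX1A and 74.8% for IGFBPL1.

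Both homeobox genes were read at low levels, and they differed in how far the IPs stood above the input. BARHL1 stood at 5.86, 7.61 and 7.28 CPM in IP replicates 1, 2 and 3, against 0.148 CPM in the input. These levels rest on 210, 281 and 269 reads against 6 reads. The groups did not overlap, and the lowest IP was 39.6 times the input. BARHL1 was higher in the IPs by a log2 fold change of 5.51 with a standard error (SE) of 0.73, at an adjusted p of 0.0426 (edgeR, quasi-likelihood, Benjamini-Hochberg over everything tested). The mean ratio of 46.7 has a 95% Poisson interval of 21.4 to 127 from the 6 input reads, which covers counting error only. With the link of the records the log2 fold change was -0.23.

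LMX1A was also above the input in 3 of 3 IPs but did not pass the test. It stood at 7.23, 17.7 and 12.8 CPM in IP replicates 1, 2 and 3, against 2.42 CPM in the input, from 259, 652 and 473 reads against 98. IP replicate 2 was 2.44 times IP replicate 1, so the IPs ranged from 2.99 to 7.30 times the input. The log2 fold change was 2.37 (SE 0.70, edgeR adjusted p = 0.172), and DESeq2 called the same difference at an adjusted p of 0.00108. Over all alternatives the adjusted p of LMX1A ran from 0.000213 with the DESeq2 length offset to 1 with the link of the records. The mean ratio was 5.19, with an interval of 4.26 to 6.39 from the input reads. With the link of the records the log2 fold change was 0.60, so LMX1A kept its sign there while the other 3 genes turned.

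The 2 neurogenic genes were read more deeply, and both rose. INSM1 was at 94.7, 99.7 and 96.3 CPM in the IPs, against 2.79 CPM in the input, where the IPs hold 3390, 3680 and 3561 reads and the Poisson interval of the input reads runs from 93.1 to 135.9. The IPs were nearly equal, and the lowest was 33.9 times the input. The log2 fold change was 5.12 (SE 0.18, edgeR adjusted p = 0.0161), and the mean ratio of 34.7 has a counting interval of 28.9 to 42.1. With the link of the records it was -0.51.

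IGFBPL1 was the most abundant of the 4 genes. It reached 332.4, 364.6 and 292.1 CPM in the IPs against 8.30 CPM in the input, from 11904, 13457 and 10800 estimated reads against 336. Again the groups were far apart, the lowest IP being 35.2 times the input. IGFBPL1 rose by a log2 fold change of 5.31 (SE 0.23, edgeR adjusted p = 0.0161), and the mean ratio of 39.7 has a counting interval of 35.7 to 44.4. With the link of the records it was -0.58.

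**Figure D1:**
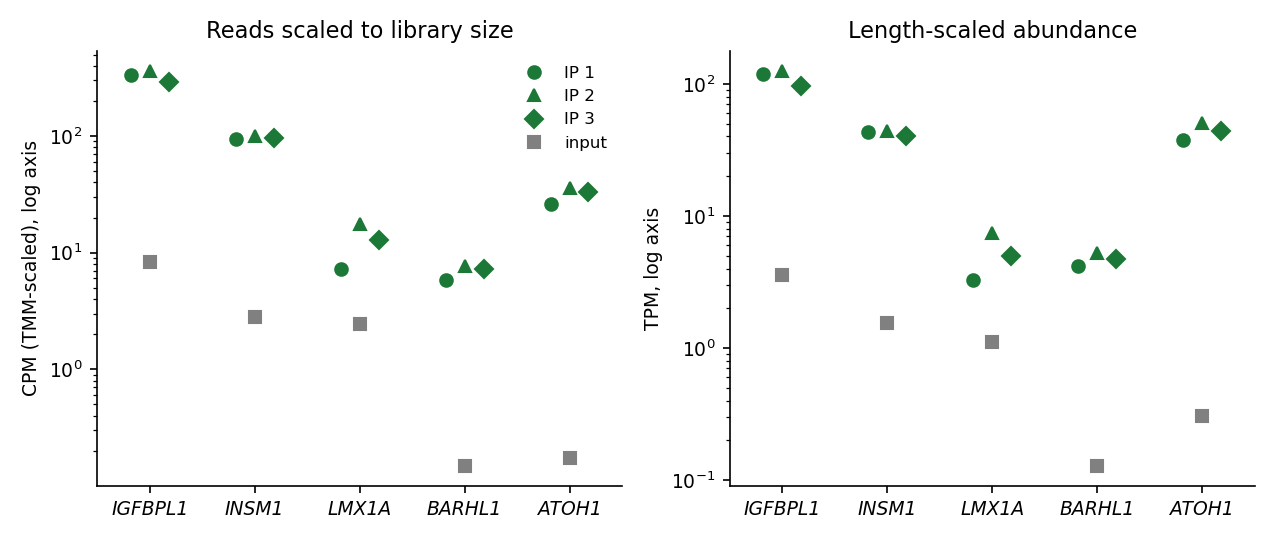
Levels of the 4 genes and of ATOH1 in each library at DIV28, as CPM (left) and TPM (right) on log axes. Green symbols are the 3 IPs and the grey square is the single input. Every IP lies above the input for each gene, and LMX1A has the smallest gap, from 2.42 CPM in the input to 7.23 CPM in the lowest IP.

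Thus 3 of the 4 genes were called higher and 4 of 4 had every IP above the input. Over all 43809 genes and transcripts tested, 2.3% were called higher and 1.48% lower, and 28.2% had every IP above the input. Among the joined genes, which the study itself had called on these libraries, 29.2% were called higher and 26.8% lower, and 51.2% had every IP above the input. Genes were also named by matching their recomputed log2 fold change to the study's own value, as described below. Neither the direction nor the size of the changes of the 4 genes is therefore independent of the study's own result. By size of log2 fold change BARHL1, IGFBPL1, INSM1 and LMX1A ranked 18, 25, 28 and 187 among the 1652 joined genes, of which 1.88% reached 5 or more. The standard errors rest on the read counts and on the spread of the 3 IPs, drawn by edgeR towards a trend over everything tested. They therefore do not measure the spread of a gene's own IPs alone. The single input was assumed to vary like the IPs. No gene or transcript passed in edgeR when any one IP was left out (3574 to 4268 higher and 3129 to 3673 lower at an unadjusted p under 0.05) or with limma-voom (3792 and 6405), while all 4 genes kept their sign. DESeq2 called 5752 higher and 4028 lower.

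**Figure D2:**
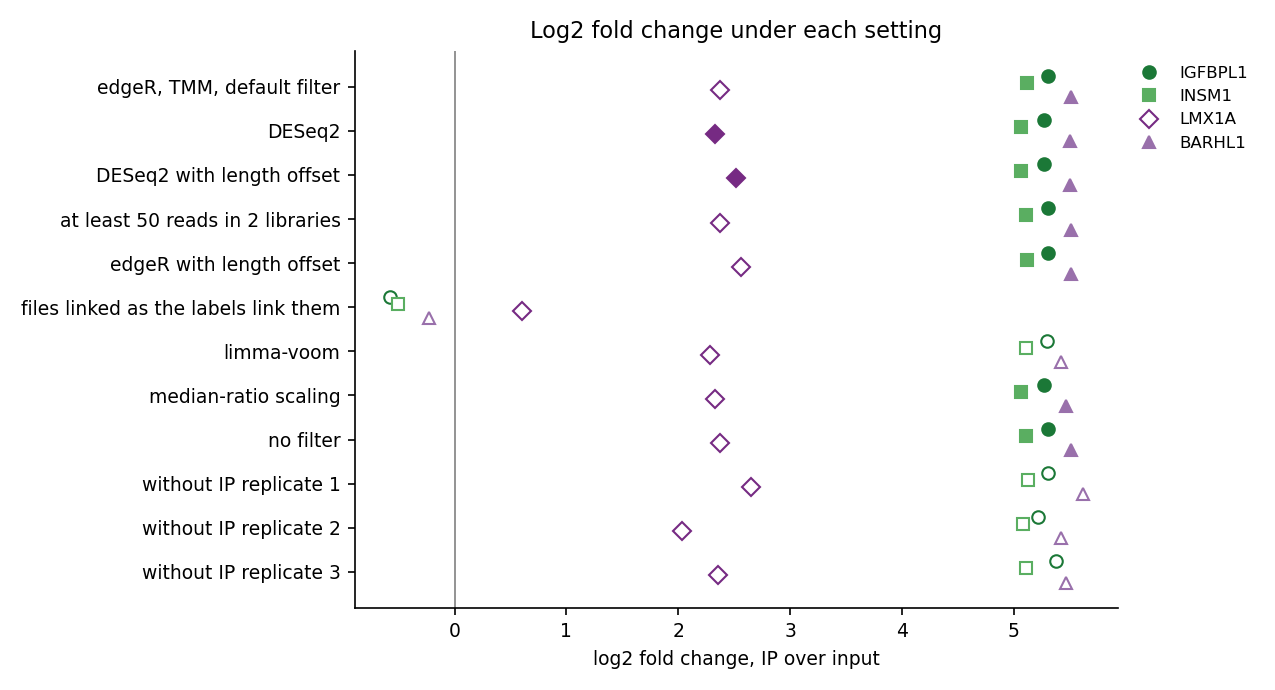
Log2 fold change of each gene (x axis, IP over input) under each setting of the test (y axis), with the transcripts of a gene summed throughout. Filled symbols have an adjusted p under 0.05 and open symbols do not. BARHL1, INSM1 and IGFBPL1 stay above 5 except where the files are linked as the records link them, and LMX1A lies between 0.60 and 2.65.

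Levels between genes were compared as TPM, the abundance that accounts for transcript length. The IPs averaged 113.4 ± 15.9 TPM for IGFBPL1 (SD, n = 3), where the input held 3.59 TPM. They averaged 42.7 ± 2.00 TPM for INSM1 (SD, n = 3), with 1.55 TPM in the input. Both homeobox genes lay far lower. LMX1A averaged 5.23 ± 2.11 TPM in the IPs (SD, n = 3), with 1.12 TPM in the input. For BARHL1 the mean was 4.73 ± 0.544 TPM (SD, n = 3), with 0.128 TPM in the input. In the IPs the order was IGFBPL1, INSM1, LMX1A and BARHL1, and the ranges overlapped between LMX1A and BARHL1 alone. Within a library, IGFBPL1 stood at 2.74, 2.85 and 2.36 times the TPM of INSM1 in the IPs and at 2.32 times in the input, so this pair held nearly the same proportion in all 4 libraries. LMX1A stood at 0.782, 1.42 and 1.04 times the TPM of BARHL1 in the IPs and at 8.74 times in the input, with a 95% exact binomial interval of 3.87 to 24.4 from its reads. The 2 homeobox genes were thus at like levels in the IPs, while in the input LMX1A was the higher one.

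The 4 genes also differed in how much the IPs varied. The coefficient of variation (CV) of CPM over the 3 IPs was 2.66% for INSM1, 11.0% for IGFBPL1, 13.4% for BARHL1 and 41.6% for LMX1A. Because the CV depends on the level, each was set against the joined genes within 2-fold of its mean CPM. LMX1A varied more than 96.9% of 321 such genes, whose median CV was 14.7%. INSM1 lay at the other end, above 7.17% of 628 genes with a median of 8.44%. IGFBPL1 lay above 83.4% of 325 and BARHL1 above 35.8% of 165. The study had called the joined genes on these same IPs, and such calls can favour genes whose IPs agree. These shares therefore hold among the joined genes only.

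LMX1A was the only one of the 4 genes joined from more than 1 transcript, and its transcripts were apportioned unevenly between IPs and input. The 2590-base transcript uc021pdy.1 had 149.5, 299.3 and 125.0 estimated reads in the IPs, against 0.70 in the input. The 3356-base transcript uc001gcz.2 had 109.5, 305.5 and 300.1 in the IPs, against 97.3 in the input. In the input, 99.3% of LMX1A reads were thus assigned to uc001gcz.2, against 42.3%, 46.9% and 63.5% in the IPs. Taken alone, uc021pdy.1 had a log2 fold change of 7.54 (edgeR adjusted p = 0.0671) and uc001gcz.2 one of 1.44 (edgeR adjusted p = 0.457), and neither passed. The difference between the transcripts was not tested. The 2796-base uc001gcw.2 had 47.9 reads in IP replicate 3 and was listed at 0 elsewhere, and the 3545-base uc021pdz.1 had 47.2 in IP replicate 2 and was listed at 0 elsewhere. Salmon divides reads among overlapping transcripts by estimation, so these shares are less certain than the sum.

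**Figure D3:**
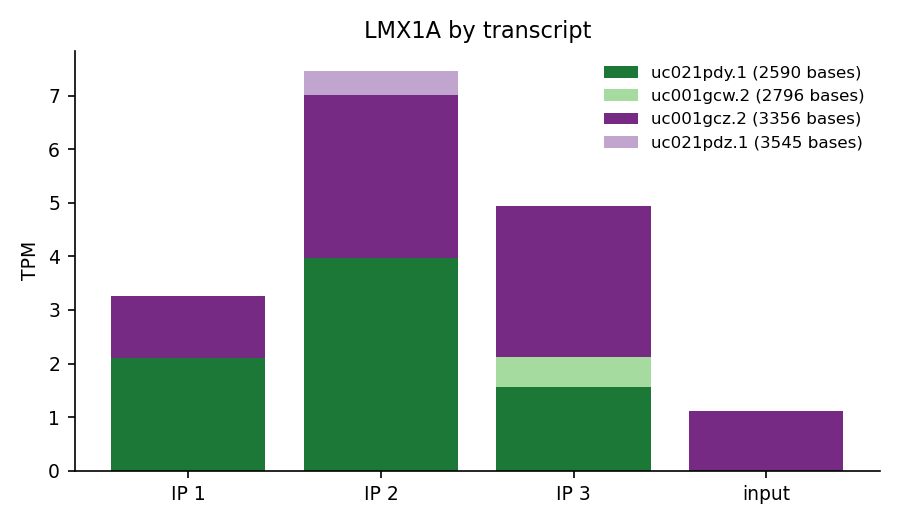
TPM of the 4 LMX1A transcripts, stacked, in the 3 IPs and the input. The input bar, 1.12 TPM high, consists almost wholly of uc001gcz.2, while uc021pdy.1 makes up 2.10, 3.97 and 1.57 TPM of the IPs.

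The other genes of these pathways came from lists of which only part could be joined. Of 26 rhombic lip and granule cell progenitor transcription factors, 7 were joined, and 6 of these rose while LMX1A did not pass (over all joined genes, 29.2% were called higher and 26.8% lower). Their median log2 fold change was 5.51, beside 0.80 over all joined genes and 0.10 over everything tested. OLIG3, a bHLH factor of the dorsal hindbrain, stood at 19.7, 32.4 and 41.0 CPM in the IPs against 0.272 CPM in the input, a rise of 6.82 on the log2 scale (edgeR adjusted p = 0.0353). NHLH1 and NHLH2, bHLH factors of newborn neurons, had log2 fold changes of 6.32 and 2.57. MEIS2, a TALE homeodomain factor, had the smallest of the 7 at 1.27 (edgeR adjusted p = 0.0328). The paralogs BARHL2, LMX1B and INSM2 were not analysed here. Every joined member of this and the following lists comes from the study's own calls on these libraries, and was named by its fold change there. The counts are no independent evidence of direction, and the fold changes none of size.

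Of 18 roof plate and choroid plexus genes, the list that also holds LMX1A, 7 were joined, of which 4 rose and 1 fell, beside 29.2% called higher and 26.8% lower over all joined genes. WNT1, a ligand of the dorsal midline, stood at 49.3, 62.0 and 52.5 CPM in the IPs against 0.297 CPM in the input, a rise of 7.51 on the log2 scale (edgeR adjusted p = 0.0161). RSPO1 and RSPO3, secreted enhancers of WNT signalling, had log2 fold changes of 4.08 and 3.51, and the BMP target MSX1 one of 2.72. MSX2, the paralog of MSX1, fell by 1.40 on the log2 scale (edgeR adjusted p = 0.022), at 237.0 to 242.5 CPM in the IPs, against 629.0 CPM in the input. AQP1, a water channel of the choroid plexus, had 1.92 to 3.43 CPM in the IPs against 16.0 CPM in the input, short of the threshold (edgeR adjusted p = 0.0769). The summed level of the 7 genes was 1101 to 1387 CPM in the IPs, against 753.3 CPM in the input.

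Of 33 genes of neurogenic progenitors and newborn neurons, the list that holds INSM1 and IGFBPL1, 20 were joined and 17 rose, none falling, beside 29.2% higher and 26.8% lower over all joined genes. With median-ratio scaling or no filter 16 rose. Their median log2 fold change was 3.66. The largest after NHLH1 was that of HES6, a HES family factor that promotes neurogenesis, at 5.87 (edgeR adjusted p = 0.0209). DLL3 and DLL1, ligands of the NOTCH pathway, had 4.63 and 4.28, and TAGLN3, a neuronal cytoskeletal protein, 3.84. CNTN2 rose by 4.61, GADD45G by 3.91, and the neuronal genes ELAVL3, ELAVL4 and ELAVL2 by 3.72, 2.66 and 2.36. The neuronal tubulin TUBB3, the microtubule proteins DCX and STMN2 and the transcription factor SOX11 rose less, by 1.41, 1.76, 1.39 and 1.85. Neuronal genes of the list thus had both larger and smaller fold changes. SCRT2 and SRRM4 were among those that did not pass (adjusted p of 0.0707 and 0.0756 from edgeR).

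**Figure D4:**
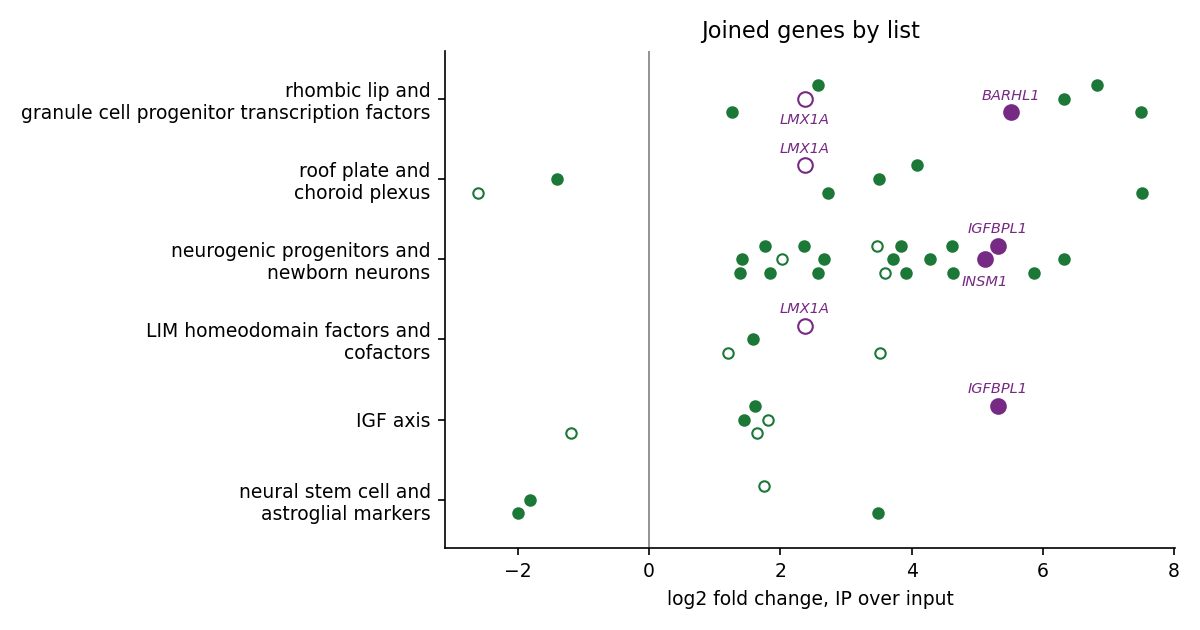
Log2 fold change (x axis, IP over input) of each joined gene in 6 lists (y axis), with LMX1A shown in 3 of them. Filled symbols have an adjusted p under 0.05, and the 4 genes described here are in purple. INSM1 (5.12) and IGFBPL1 (5.31) lie in the upper part of the neurogenic list, whose median is 3.66.

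Partners of the encoded proteins were joined in small numbers. Of 10 genes for the co-repressors that act with INSM1, only GSE1 was joined, and it rose by 3.66 (79.2 to 138.1 CPM in the IPs, against 8.03 CPM in the input, edgeR adjusted p = 0.0409). Of 21 LIM homeodomain factors and cofactors 4 were joined and 1 was called higher, beside 29.2% called higher over all joined genes. This was SSBP3, which binds the LIM cofactor LDB1 (log2 fold change 1.58, edgeR adjusted p = 0.029). ISL1, a LIM homeodomain factor of motor and sensory neurons, had 11.1, 14.6 and 26.2 CPM in the IPs, against 1.51 CPM in the input (edgeR adjusted p = 0.0886). LDB2, a LIM cofactor, had 75.5, 89.4 and 96.0 CPM in the IPs, against 37.9 CPM in the input (edgeR adjusted p = 0.0598). Of 18 genes of the insulin-like growth factor axis 6 were joined and 3 rose, beside 29.2% called higher over all joined genes. Beside IGFBPL1 these were the insulin receptor INSR (1.61) and the receptor substrate IRS2 (1.45, edgeR adjusted p = 0.0498). The IRS2 call was lost with median-ratio scaling and with no filter, which left 2 of the 6 called. IRS1, the other receptor substrate joined, had a log2 fold change of 1.64 and did not pass (edgeR adjusted p = 0.059). IGF2R, which clears IGF2, was at 33.3 to 48.2 CPM in the IPs against 96.3 CPM in the input, short of the threshold (edgeR adjusted p = 0.0832). IGFBPL1 thus had the largest log2 fold change of the 6, the next being 1.82 for PAPPA, a protease of IGF binding proteins, which did not pass.

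Markers of other cell types moved in both directions beside these genes, where 29.2% of all joined genes were called higher and 26.8% lower. Of 12 neural stem cell and astroglial markers 4 were joined. SOX9 and PROM1 fell by 1.81 and 2.00 on the log2 scale, SOX2 rose by 3.49, and FABP7 did not pass. Their summed level was 174.5 to 222.3 CPM in the IPs, against 467.1 CPM in the input. Of 8 endothelial markers, ADGRL4 and CLDN5 were joined. ADGRL4 fell by 3.38, from 691.1 CPM in the input to between 64.1 and 69.0 CPM in the IPs, and CLDN5 had a log2 fold change of 5.12 (edgeR adjusted p = 0.0498), a call lost with median-ratio scaling and with no filter. Of 11 mesenchymal and neural crest markers, COL1A1 fell by 1.46 and DCN did not pass, with summed levels of 1032 to 1187 CPM in the IPs, against 3052 CPM in the input. The GABAergic marker KIRREL2 had 12.87, 16.85 and 14.28 CPM in the IPs against 3.36 CPM in the input (log2 fold change 2.13, edgeR adjusted p = 0.0679). The pluripotency marker LIN28A, the 1 joined of 5, had 19.04, 20.32 and 12.06 CPM in the IPs against 2.125 CPM in the input (log2 fold change 3.01, edgeR adjusted p = 0.0619). Both thus lay above the input in every IP but did not pass. The part of these cell types in the levels of the 4 genes was not tested.

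For each gene, the joined genes with the most similar profile over the 4 libraries were found by Euclidean distance between centred log2 CPM values. The nearest to BARHL1 were INSM1 (distance 0.29), CSRP1 (0.34) and IGFBPL1 (0.35). The nearest to INSM1 were SOST (0.16), IGFBPL1 (0.26) and BARHL1 (0.29), and those to IGFBPL1 were WFIKKN1 (0.11), CHRNB4 (0.15) and CSRP1 (0.18). These 3 genes were therefore close to one another among 1652 joined genes, in profiles that are dominated by the step from input to IP. The input value of BARHL1 in these distances rests on 6 reads. LMX1A was farther from them than they were from one another, at distances of 2.60 to 2.77. Among the joined genes it ranked 208 in nearness to BARHL1, 216 to INSM1 and 217 to IGFBPL1. The nearest genes to LMX1A were SPX (0.38), ELOA-AS1 (0.49) and PTX3 (0.53). SPX, which encodes a secreted peptide, was at 38.5, 81.7 and 78.9 CPM in the IPs, against 10.7 CPM in the input. Like LMX1A, and also BARHL1 and INSM1, it was lowest in IP replicate 1.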

How the data were processed

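RNA of 3 IPs and 1 input was sequenced by the authors as single reads from SMART-Seq v4 cDNA, fragmented with Nextera XT. Salmon 0.8.2 (named in the submitters' processing notes) estimated the abundance of 69548 UCSC transcripts of hg19. Estimated counts, which are not normalised, and TPM were deposited for every transcript. The IPs hold 34603230, 36860319 and 37719839 estimated reads, the input 41173019, and intervals on these cover counting error only. Effective transcript lengths, also deposited, served for length offsets, and annotated lengths are those printed for transcripts. Effective lengths did not differ between libraries. For BARHL1, INSM1 and IGFBPL1, each of 1 transcript, the offset thus holds no difference in length between libraries. The fold changes and p-values of the authors' gene table are not printed, and its mean counts and fold changes served to name genes.

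Transcripts were tied to a gene when a run of 1 to 20 neighbours gave that gene's mean count to within 2% and its recomputed log2 fold change to within 1e-05. Of 1997 table genes available (17970 were not used here) 1697 matched. Dropping 43 with several matches and 2 that shared a transcript leaves 1652 joined genes, 472 of them from a single transcript. Joined genes were summed, and other transcripts were kept singly, which departs from the gene counts planned. Groups follow the records, and files were linked to them by their tag.

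Counts were rounded and tested by quasi-likelihood in edgeR 4.0.16 (R 4.3.3) after TMM scaling and filterByExpr at its minimum count of 10, with Benjamini-Hochberg adjustment and a threshold of 0.05. The standard error is the absolute log2 fold change over the square root of F. Log2 CPM profiles used a prior count of 1. Alternatives were median-ratio scaling, length offsets, DESeq2 1.42.0, limma-voom (limma 3.58.1), other filters, each IP left out, the link of the records, single transcripts, and a pseudocount of 1 TPM. All tools were also run on simulated counts. The simulated input varied like the simulated IPs, so that assumption could not be tested there.

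The 4 genes and the 11 lists were chosen with earlier results of these data known. Named genes were the 4 genes, ATOH1, up to 6 joined members per list by smallest p and those against their list's direction, and 3 nearest profiles per gene. Members given beyond these, in the list of neurogenic progenitors and newborn neurons, were added after their values were seen, as was the motif CANNTG. Differentiations were independent per the study. One list member is not reported here.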

Additional observations from a re-analysis of the deposited data

How the results depend on the processing

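The sign of all 4 genes held under every alternative but the link of the records, which gave log2 fold changes of -0.23 for BARHL1, -0.51 for INSM1, -0.58 for IGFBPL1 and -0.17 for ATOH1. With limma-voom these 4 did not pass (5.42, 5.11, 5.30 and 7.41). LMX1A passed with DESeq2 (2.33) and with its length offset (2.52). With one IP left out, log2 fold changes ran from 5.42 to 5.62 for BARHL1, 2.03 to 2.65 for LMX1A, 5.08 to 5.13 for INSM1, 5.22 to 5.38 for IGFBPL1 and 7.38 to 7.62 for ATOH1, none passing. A design of 2 libraries against 1 leaves 1 residual degree of freedom. From 1008 higher and 648 lower, the counts of calls went to 5752 and 4028 with DESeq2, 5779 and 4043 with its length offset, and 1869 and 1149 with at least 50 reads in 2 libraries. They were 0 and 0 with limma-voom (3792 and 6405 at an unadjusted p under 0.05), the link of the records (1034 and 229) and each IP left out (3574 to 4268 and 3129 to 3673), and every list count was then 0 too. The list counts that moved by over 1.5 times with DESeq2, either way, went to 4 LIM factors, 5 IGF axis genes, 2 stem cell and astroglial, 2 GABAergic and 1 pluripotency marker higher, and to 2 roof plate genes, 1 IGF axis gene and 2 mesenchymal markers lower. With the 50-read filter those that moved went to 2 LIM factors, 2 stem cell and astroglial, 1 GABAergic and 1 pluripotency marker higher, and 2 roof plate genes and 2 mesenchymal markers lower. With median-ratio scaling or no filter, 0 endothelial markers were higher. The other list counts stayed within 1.5 times under these settings. The cause was not tested. A pseudocount of 1 TPM lowered the log2 TPM ratio to 2.34 for BARHL1, 1.55 for LMX1A, 4.10 for INSM1 and 4.64 for IGFBPL1, since the inputs are near or below 4 TPM. Without one IP the ratios ran from 5.12 to 5.29, 1.88 to 2.47, 4.76 to 4.82 and 4.90 to 5.09. No paired analysis was possible because the input has 1 library. BARHL1 is limited by its 6 input reads, and the spread of the input could not be estimated.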
